A study of Mus musculus with 19 samples.

Results

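The genes described here are Trp53, which encodes the transcription factor p53, and 9 genes that p53 is known to switch on: Mdm2, Ccng1, Plk2, Bax, Bbc3, Trp53inp1, Zmat3, Eda2r and Sesn1. They were chosen as a list, by gene symbol, and are 10 of the 35598 genes measured; all 10 passed the filter on low counts in a fit of 15123 genes. Messenger RNA was sequenced in 19 libraries of primary mouse myoblasts, the precursor cells that stop dividing and fuse into multinucleate muscle fibres. Proliferating myoblasts were taken at 24 h, differentiated myotubes at 48 h and fused myotubes at 72 h. The genotype label was either WT, with 3, 3 and 4 libraries at these stages, or Glud1KO, with 3, 2 and 4 libraries. Glud1 encodes glutamate dehydrogenase, the mitochondrial enzyme that converts glutamate to alpha-ketoglutarate. All groups were cultured primary myoblasts, and the labels give no mouse strain or age, no other allele or agent, and no means by which Glud1 was removed.

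The p53 protein is held at a low level by MDM2, a ubiquitin ligase that marks it for destruction and whose own gene is activated by p53, so that the pair forms a negative feedback loop. When DNA damage or other stress releases p53 from MDM2, it binds response elements in DNA and activates genes that halt the cell cycle, trigger apoptosis or adjust metabolism. Much of this control acts on the stability of the protein, which RNA levels do not show. Myoblasts leave the cell cycle for good when they differentiate, and Cdkn1a, the best known p53 target, is induced in muscle differentiation also by routes that do not need p53.

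Promoter windows of 300 bases, from 250 before to 50 after a transcription start, were available from RefSeq for 8 of the 10 genes, in 11 windows on build GRCm38.p6; Trp53inp1 and Zmat3 had none. The windows were searched for the p53 decamer consensus, the 10-base unit of which p53 binds a pair. The consensus reads the same on both strands, so both were covered, and no other motif was searched. It occurred in 5 windows of 5 genes, Bax, Ccng1, Mdm2, Sesn1 and Trp53, and in 8.36% of all 32851 promoter windows. Each of these 5 windows held 1 match, so none held a pair of matches to this consensus. Of all windows, 0.359% held 2 or more. The stretch of 70 bases around each match is shown because p53 is known to read such units in pairs. The match is in capitals.
Bax: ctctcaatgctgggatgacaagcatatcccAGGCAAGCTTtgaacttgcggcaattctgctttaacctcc
Ccng1: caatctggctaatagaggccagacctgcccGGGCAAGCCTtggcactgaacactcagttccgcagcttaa
Mdm2: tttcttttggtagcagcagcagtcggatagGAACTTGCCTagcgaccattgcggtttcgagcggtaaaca
Sesn1: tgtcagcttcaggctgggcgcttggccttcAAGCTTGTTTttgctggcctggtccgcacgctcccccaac
Trp53: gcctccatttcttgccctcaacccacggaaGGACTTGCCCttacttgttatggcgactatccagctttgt
They lie at chr7:45467060-45467129 (minus strand), chr11:40755432-40755501 (minus), chr10:117710905-117710974 (minus), chr10:41887236-41887305 (plus) and chr11:69580254-69580323 (plus). The match begins 201 bases before the start of Bax, 185 before that of Ccng1, 186 before that of Mdm2, 173 before the inner start of Sesn1 and 75 before that of Trp53. The 3 windows of Bbc3, the windows of Eda2r and Plk2 and a further Sesn1 window, whose RefSeq start lies at 41810574, held no such letters, which says nothing of other windows. Among the 36 further p53 target genes described below, 29 had windows, and 9 of those held a match, in 10 of their 41 windows. As given below, Ccng1 and Sesn1 rose with differentiation while Trp53, Mdm2 and Bax fell, so the 5 genes with a match did not move in 1 direction.

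Libraries held 16168131 to 30742634 estimated counts. Levels are given as CPM, which are counts brought to the same library size with TMM factors, or as TPM where genes are compared with each other, because TPM takes transcript length into account. A gene was called where edgeR's quasi-likelihood test gave a Benjamini-Hochberg adjusted p under 0.05 over all 15123 genes, and log2 changes are given with their SE. The labels number biological replicates and do not state what separates them (animals, or dishes of the same cells), so the p-values measure the spread between these libraries, which may be technical. Glud1 itself did not separate the labels by counts: 184 to 192 CPM in WT and 185 to 190.0 in Glud1KO myoblasts, and no call at any stage (Glud1 log2 -0.02 ± 0.04, -0.09 ± 0.05 and -0.02 ± 0.04). In TPM, Glud1 was lower in every Glud1KO library, at 136 to 142 against 163 to 175 in myoblasts, 58.9 to 64.5 against 79.5 to 86.2 in differentiated and 75.7 to 82.6 against 101 to 106 in fused myotubes. The file names mark both groups as KO, with a further letter for the Glud1KO libraries; the labels were followed, and every genotype direction below rests on them. Myogenic markers were abundant throughout (the 8 markers summed to 1850.2 to 25588.6 CPM), and 16 of 25 markers of other cell types stayed under 1 CPM in every library, with Dpt at 0. The others included the mural cell marker Rgs5 and the leukocyte marker Itgam.

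In WT myoblasts, per transcript length, Bax stood first at 483 ± 72.7 TPM, followed by Ccng1 at 407 ± 9.90, Mdm2 at 311 ± 21.0 and Trp53 at 141 ± 6.76 (SD, n = 3). Plk2 (92.8 TPM), Eda2r (49.3), Zmat3 (40.0), Trp53inp1 (18.2), Bbc3 (10.9) and Sesn1 (8.14) came after them, and no neighbours in this order overlapped between libraries. In WT fused myotubes the order was Ccng1 (554 TPM), Bax (236), Eda2r (222), Mdm2 (169), Plk2 (43.9), Sesn1 (39.4), Trp53 (24.7), Zmat3 (17.3), Trp53inp1 (10.4) and Bbc3 (9.64). There the libraries of Bax and Eda2r overlapped, as did those of Trp53inp1 and Bbc3. In these sums Trp53 thus moved from the fourth place to the seventh, and Eda2r from the sixth to the third. The places of Bax and Mdm2 rest partly on transcripts with smaller parts of their counts. Bax-201, the transcript with most of the Bax counts, was at 285 ± 8.36 TPM in WT myoblasts, below Ccng1-201 at 407 ± 9.90. Mdm2-201 and Mdm2-209 were there at 80.7 ± 7.64 and 67.3 ± 8.29. In WT fused myotubes Bax-201 was at 158 ± 10.2, Eda2r-201 at 207 ± 8.42 and Mdm2-201 at 88.2 ± 4.20.

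**Figure D1:**
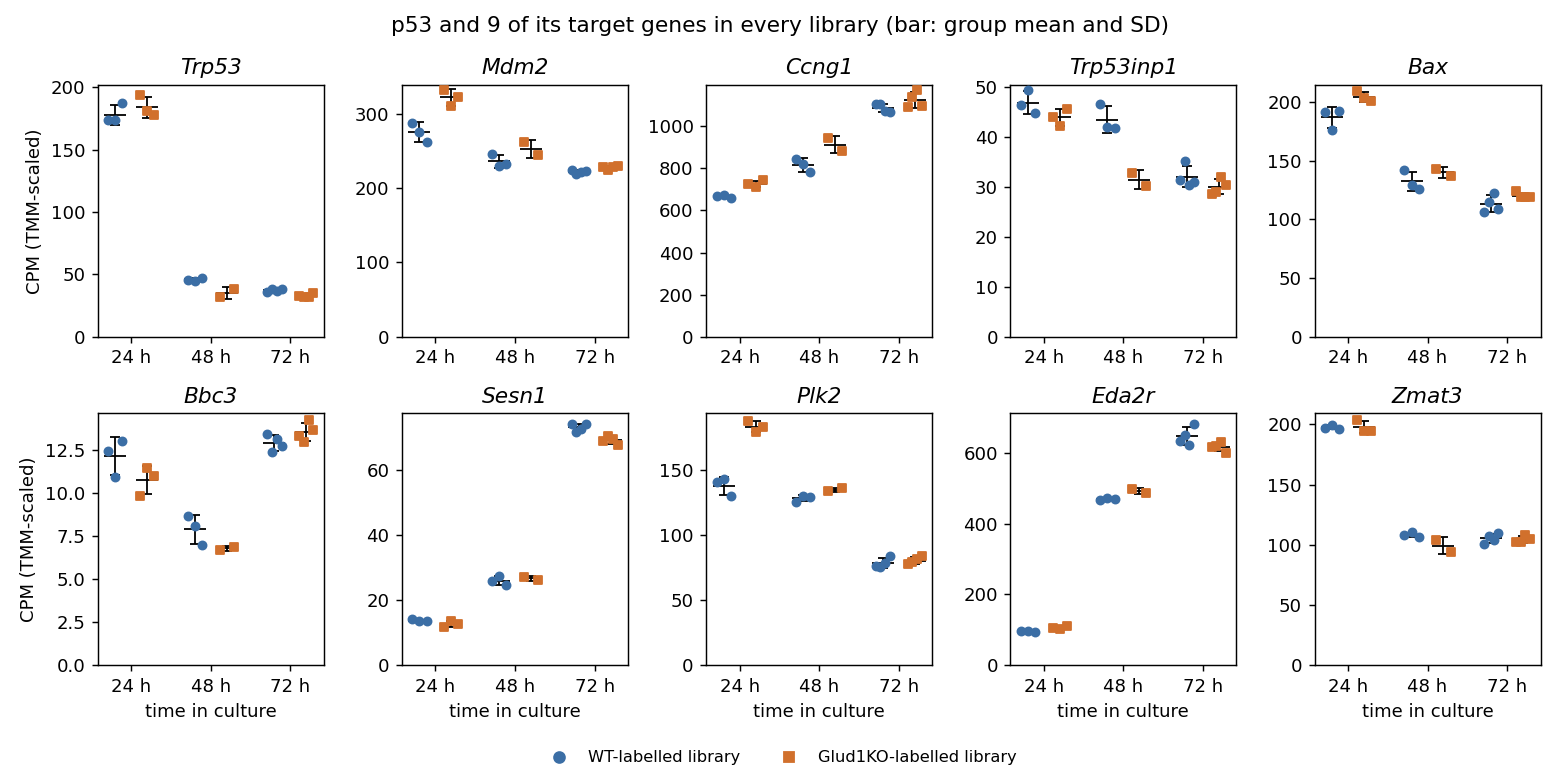
CPM (vertical axis, TMM-scaled, starting at 0) of the 10 genes by time in culture; each point is a library, circles WT-labelled and squares Glud1KO-labelled, and black bars show the group mean and SD. Trp53 and Zmat3 are high at 24 h alone, Eda2r and Sesn1 are highest at 72 h, and the 3 Glud1KO myoblast libraries of Plk2 lie above the 3 of WT.

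The p53 gene lost most of its RNA when myoblasts differentiated, while its target genes moved either way over the same interval. Of the 10 genes, 3 were higher and 6 lower in WT differentiated myotubes than in WT myoblasts, in a comparison that called 85.0% of all genes, 42.4% higher and 42.6% lower. In fused against differentiated WT myotubes, 4 were higher and 5 lower, where 75.1% of all genes were called, 37.4% higher and 37.7% lower. Groups did not overlap between libraries in 85.1% and 71.6% of all genes. Between WT myoblasts and fused myotubes 85.5% were called, and in Glud1KO libraries 83.7%, 70.2% and 87.2% in the same 3 comparisons. These shares are so high that the number of members called says little about them, and the sizes and directions are what the following values describe. The median log2 change of the 10 was -0.17 and then -0.06, beside 0.02 and -0.01 over all genes. With the length and GC trend of every library removed these medians of the 10 were -0.02 and 0.10, with 4 higher and 4 lower and then 5 higher and 4 lower, and under library size alone they were -0.42 and -0.13. Markers of other cell types moved with the stages too: in WT myoblasts, differentiated and fused myotubes the 3 mural cell markers summed to 36.7 to 41.0, 0.774 to 0.871 and 0.0824 to 0.617 CPM, mostly Rgs5, and the 5 leukocyte markers to 1.51 to 1.90, 15.5 to 18.5 and 8.49 to 10.3, mostly Itgam from 48 h on, with Ptprc under 1 CPM in every library. In the same order the 6 fibroblast markers summed to 7.61 to 8.22, 1.09 to 2.23 and 3.24 to 3.93 CPM. The 5 endothelial markers summed to 1.34 to 1.97, 5.50 to 6.05 and 2.28 to 2.74 CPM. The 3 Schwann cell markers summed to 0.778 to 1.30, 1.66 to 2.70 and 0.206 to 0.639 CPM. The part of these markers in the changes of the 10 genes was not tested. The comparisons between stages share the middle group. RNA was taken from whole cultures, so fewer cells with a transcript and less of it per cell cannot be told apart.

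Trp53 stood at 174, 173 and 187 CPM in WT myoblasts, at 45.9, 44.6 and 47.4 in differentiated myotubes and at 36.3, 38.3, 36.4 and 38.6 in fused myotubes. No 2 stages overlapped. It fell 3.87-fold between the first 2 stages (log2 -1.95 ± 0.05, edgeR adjusted p = 6.03e-23) and by a further 0.30 ± 0.05 on the log2 scale on fusion (adjusted p = 2.23e-05). In Glud1KO libraries Trp53 was at 194, 181 and 178 CPM, then at 31.8 and 38.5, then at 32.6, 31.6, 31.7 and 35.0, with a fall of 2.39 ± 0.06 (adjusted p = 7.82e-23) followed by a difference of -0.11 ± 0.07 that was not called (adjusted p = 0.162). It was -0.19 and called with the length and GC trend removed (adjusted p = 0.00714), -0.24 and called without Glud1KO differentiated replicate 1 (0.00991), and 0.04 and not called without Glud1KO differentiated replicate 2 (0.68), so 1 library sets its sign. Markers of dividing cells moved with it: Mki67, a protein of cycling nuclei, was at 199 ± 17.2, 4.65 ± 0.503 and 0.125 ± 0.120 CPM (SD, n = 3, 3 and 4) in WT, and the 3 proliferation markers together at 733.7 to 779 CPM in myoblasts, 12.5 to 16.7 in differentiated and 0.571 to 1.10 in fused myotubes. The part of cell division in the fall of Trp53 was not tested.

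Mdm2, which encodes the ligase that removes p53, was at 288, 276 and 263 CPM in WT myoblasts, 246, 230.2 and 233 in differentiated and 225, 219.6, 222 and 223 in fused myotubes. It fell by 0.22 ± 0.04 on the log2 scale at differentiation (adjusted p = 8.65e-06), against 1.95 for Trp53. The later difference of -0.09 ± 0.04 passed the test (adjusted p = 0.0391) but lost its call in 6 of 16 alternatives, among them each fit without WT fused replicate 2, 3 or 4 or WT differentiated replicate 1 (adjusted p = 0.0521 to 0.147). After removal of length and GC trends from every library, the first difference of Mdm2 was 0.01 and was not called.

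The transcripts behind the Mdm2 counts also differed between stages. Mdm2-209, a transcript annotated for nonsense-mediated decay whose start lies 736 bases inside that of the full-length Mdm2-201, took 33.6% ± 3.58 of the gene's counts in WT myoblasts, 9.53% ± 2.06 in differentiated and 11.4% ± 4.30 in fused myotubes (SD, n = 3, 3 and 4). In Glud1KO libraries the shares were 38.2% ± 0.953, 13.4% ± 1.57 and 6.62% ± 1.73 (n = 3, 2 and 4). Mdm2-201 was at 129 ± 13.7, 171 ± 7.11 and 169 ± 6.98 CPM in WT, so the full-length transcript alone did not follow the summed count downwards. Transcript shares come from reads divided between transcripts by kallisto and are given as a description.

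Ccng1 and Plk2 act on the cell cycle. Ccng1 encodes cyclin G1, which works with a phosphatase on MDM2, and is counted almost wholly from 1 transcript. It was at 668, 675 and 661 CPM in WT myoblasts, 847, 820.2 and 782 in differentiated and 1104, 1104, 1071 and 1069.7 in fused myotubes. Each stage lay above the one before, and Ccng1 rose by 0.29 ± 0.04 on the log2 scale (adjusted p = 2.7e-07) and then by 0.41 ± 0.04 (adjusted p = 1.89e-10). Under scaling by library size alone the first rise of Ccng1 was 0.04 and not called (adjusted p = 0.419). That scaling moved the median of all genes from 0.02 to -0.23 in this comparison, and from -0.01 to -0.33 between myoblasts and fused myotubes.

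Plk2 encodes a polo-like kinase of centriole duplication. In WT it was at 141, 143 and 130.4 CPM in myoblasts, 126, 131 and 129.7 in differentiated and 76.5, 75.7, 78.4 and 84.1 in fused myotubes. The first 2 stages of Plk2 overlapped, and their difference of -0.10 ± 0.04 (adjusted p = 0.0249) kept its call in 6 of 15 alternatives; the call was lost without WT myoblast replicate 1 or 2 or WT differentiated replicate 1 (adjusted p = 0.0915 to 0.12). With the length and GC trend removed, Plk2 was called in the opposite direction (0.08, adjusted p = 0.0347). On fusion Plk2 fell 1.63-fold (log2 -0.71 ± 0.04, adjusted p = 1.09e-14).

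Bax, Bbc3, Trp53inp1, Zmat3 and Eda2r belong to the arm of the response that leads towards cell death. Bax, which encodes a protein that opens the outer mitochondrial membrane, fell from 176 to 192 CPM in WT myoblasts to 126 to 142 in differentiated and 107 to 123 in fused myotubes. The changes of Bax were -0.50 ± 0.05 (adjusted p = 2.43e-10) and -0.23 ± 0.05 (adjusted p = 8.88e-05). Zmat3, which encodes a zinc finger protein that binds RNA, fell from 196 to 199 CPM to 107 to 110.2 (log2 -0.87 ± 0.04, adjusted p = 1.91e-17) and was at 101 to 110.0 after fusion, with no call (-0.04 ± 0.04, adjusted p = 0.372). This second difference of Zmat3 was called higher with the length and GC trend removed (0.22, adjusted p = 3.62e-06) and lower under library size alone (-0.11, adjusted p = 0.018), so its direction depends on the scaling. Zmat3 had most of its fall at the first step, as Trp53 had.

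Bbc3 encodes PUMA, a BH3-only protein that activates BAX. It was at 12.4, 10.9 and 13.0 CPM in WT myoblasts, 8.63, 8.05 and 6.97 in differentiated and 13.4, 12.4, 13.1 and 12.7 in fused myotubes, the lowest level in the middle. Bbc3 fell by 0.64 ± 0.09 (adjusted p = 1.56e-07) and rose by 0.72 ± 0.08 (adjusted p = 1.63e-08). In Glud1KO libraries it was at 9.83, 11.5 and 11.0, then 6.68 and 6.87, then 13.3, 13.0, 14.2 and 13.7 CPM, with changes of -0.66 ± 0.11 (adjusted p = 2.37e-06) and 1.00 ± 0.11 (adjusted p = 2.48e-09). Fused Glud1KO myotubes stood above Glud1KO myoblasts in Bbc3 (0.34 ± 0.08, adjusted p = 0.000229), and in WT the same difference was 0.09 ± 0.08 (adjusted p = 0.3). The difference between these 2 values, 0.25 ± 0.11, was not called (adjusted p = 0.15). The sign of Bbc3 between the first and last stage depends on the scaling: with the length and GC trend removed it was -0.51 in WT and -0.38 in Glud1KO libraries, both called (adjusted p = 3.77e-07 and 3.46e-05), and under library size alone it was -0.23 in WT (adjusted p = 0.00891) and 0.02 in Glud1KO libraries, where the call was lost (adjusted p = 0.847).

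Trp53inp1 encodes a nuclear protein that assists p53 in stress and takes part in autophagy. It was at 46.5, 49.4 and 44.8 CPM in WT myoblasts and at 46.7, 42.1 and 41.9 in differentiated myotubes, groups that overlapped and were not told apart by the test (log2 -0.11 ± 0.06, adjusted p = 0.0733). In 4 alternatives Trp53inp1 was called lower: under library size alone (-0.36, adjusted p = 5.11e-06), with no filter (-0.17, 0.00355), without WT differentiated replicate 1 (0.0199) and without WT myoblast replicate 3 (0.0391). In WT fused myotubes Trp53inp1 was at 31.4, 35.1, 30.5 and 31.1, a fall of 0.44 ± 0.06 (adjusted p = 6.11e-08).

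Eda2r encodes the receptor of the A2 form of ectodysplasin, a member of the TNF receptor family that is prominent in muscle. It had the largest rise of the 10 genes between myoblasts and fused myotubes. In WT it was at 97.4, 95.7 and 93.2 CPM in myoblasts, 467, 472 and 468 in differentiated and 634, 650.0, 623 and 681 in fused myotubes. The first step was a 4.92-fold rise of Eda2r (log2 2.30 ± 0.04, adjusted p = 1.79e-26) and the second a rise of 0.46 ± 0.04 (adjusted p = 8.45e-12). The stages lay far apart in every library.

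A retained-intron transcript, Eda2r-203, which shares its start with the coding Eda2r-201, took 22.4% ± 0.662 of the Eda2r counts in WT myoblasts, 6.03% ± 0.118 in differentiated and 2.73% ± 0.120 in fused myotubes (SD, n = 3, 3 and 4). In CPM, Eda2r-203 was at 21.3 ± 0.890, 28.3 ± 0.651 and 17.6 ± 0.968, while Eda2r-201 was at 74.0 ± 1.51, 440.0 ± 1.51 and 628 ± 24.4. The higher total of Eda2r was thus made of the coding transcript.

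Sesn1 encodes sestrin 1, which lowers the activity of mTORC1 under stress. It was at 14.1, 13.4 and 13.6 CPM in WT myoblasts, 25.9, 27.4 and 24.5 in differentiated and 74.0, 71.6, 72.6 and 73.9 in fused myotubes. Sesn1 rose by 0.92 ± 0.06 (adjusted p = 1.22e-14) and then by 1.50 ± 0.05 (adjusted p = 8.16e-21), which makes 5.33-fold in all. Of the called members it had the largest change on fusion. In Glud1KO libraries Sesn1 was at 11.9, 13.6 and 12.8, then 27.2 and 26.2, then 68.9, 70.3, 69.5 and 67.6 CPM.

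Sesn1 is read from a pair of starts that lie 77504 bases apart on chromosome 10. The inner start, at 41887439, opens Sesn1-201, and its promoter window holds the decamer printed above; the outer start, at 41809935, opens Sesn1-202 and lies in none of the windows searched. In WT, Sesn1-201 took 53.1% ± 2.25 of the gene's counts in myoblasts, 57.9% ± 3.12 in differentiated and 72.1% ± 1.82 in fused myotubes. In Glud1KO libraries the Sesn1-201 shares were 51.6% ± 1.24, 63.2% ± 2.94 and 73.6% ± 1.41. In CPM, WT levels of Sesn1-201 were 7.26 ± 0.193, 15.0 ± 0.83 and 52.7 ± 1.97, and those of Sesn1-202 were 6.43 ± 0.441, 10.9 ± 1.20 and 20.4 ± 1.15. Both were highest after fusion, and the inner one made the larger part of the higher total. All fused libraries lay above all myoblast libraries in the share of Sesn1-201.

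**Figure D2:**
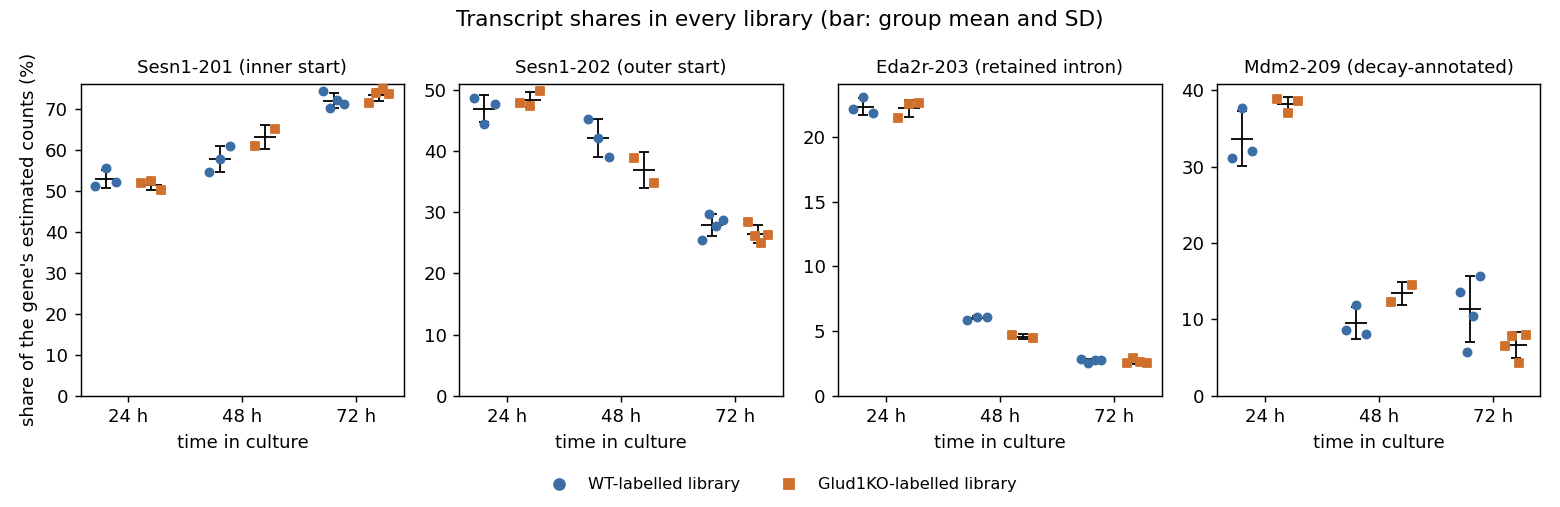
Share of the gene's estimated counts (vertical axis, percent, starting at 0) taken by 4 transcripts, by time in culture; each point is a library, circles WT-labelled and squares Glud1KO-labelled, with black bars for the group mean and SD. Sesn1-201 goes from 53.1% to 72.1% in WT while Sesn1-202 is its complement, and Eda2r-203 and Mdm2-209 take their largest shares at 24 h.

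**Figure D3:**
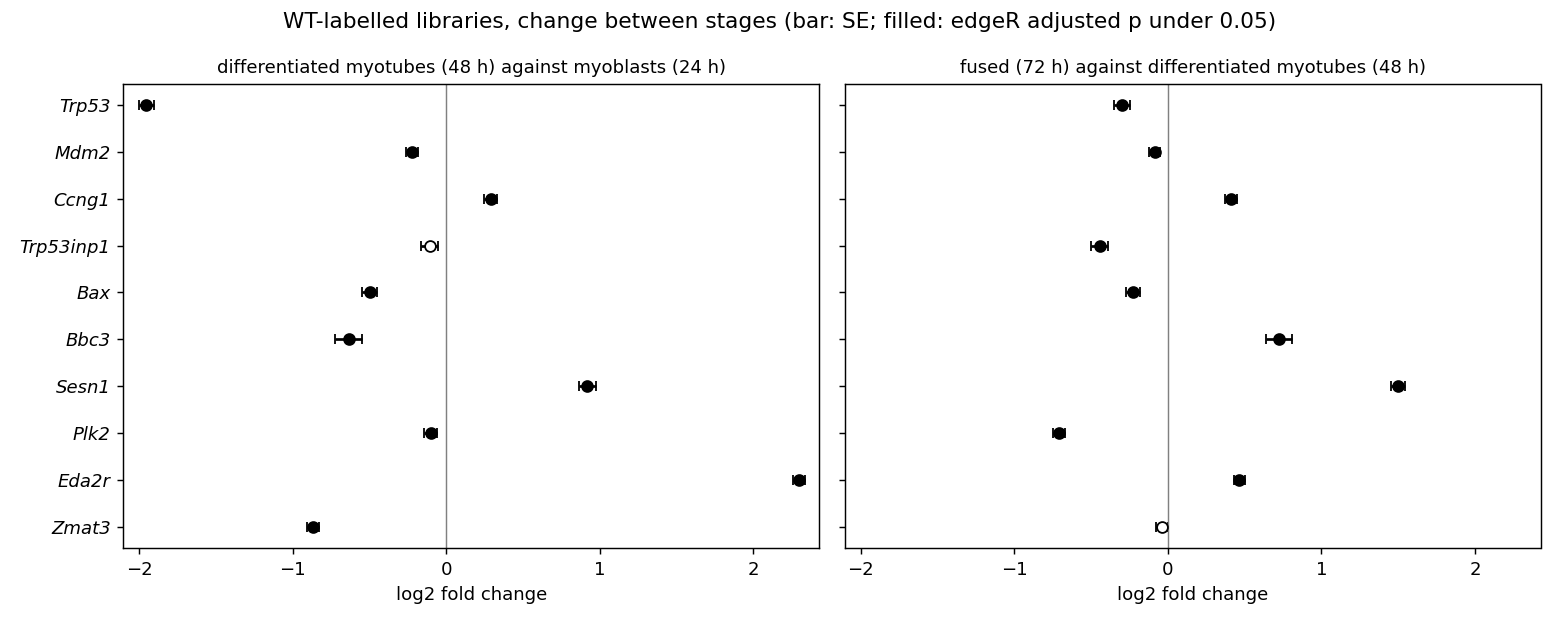
Log2 fold change (horizontal axis) of each of the 10 genes between successive stages in WT-labelled libraries; points are edgeR estimates, bars the SE, and filled points have an adjusted p under 0.05. At 48 h Trp53 (-1.95) and Eda2r (2.30) lie at the ends, and at 72 h Plk2 (-0.71) and Sesn1 (1.50).

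The second question of the design is how Glud1KO-labelled cultures differ from WT at each stage. In myoblasts 3 of the 10 genes were higher in Glud1KO libraries and none was lower, where 11.6% of all genes were called, 4.86% higher and 6.69% lower. In differentiated myotubes 1 was higher and 3 were lower, beside 25.2% of all genes called, 11.0% higher and 14.1% lower. With the length and GC trend removed, 4 were higher and 2 lower there: Mdm2 (0.18, adjusted p = 0.000524), Plk2 (0.15, 0.00653) and Eda2r (0.18, 0.000581) gained a call as higher and Zmat3 lost its call. In fused myotubes 1 was lower, beside 13.0% of all genes called, 6.32% higher and 6.72% lower. The median log2 differences of the 10 genes were 0.08, 0.06 and 0.01, against 0.01, -0.01 and -0.01 over all genes. With 1 library left out these medians of the 10 ran from 0.06 to 0.10, 0.03 to 0.07 and -0.01 to 0.02. Under library size alone they were 0.08, 0.002 and 0.006. The scaling sets how many called genes are higher rather than lower: in myoblasts 42.1% were higher, but 29.3% with DESeq2 size factors, 27.0% in the DESeq2 test, 18.8% with an offset for effective length and 56.8% with the length and GC trend removed. In differentiated myotubes it was 43.9%, but 27.0% under library size alone and 66.0% with that trend removed.

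In myoblasts Plk2 differed most. Its 3 Glud1KO libraries, at 188, 179.7 and 183 CPM, all lay above the 3 WT libraries, at 141, 143 and 130.4, a 1.33-fold rise (log2 0.41 ± 0.04, edgeR adjusted p = 4.8e-08). Mdm2 was at 333, 311 and 324 CPM against 288, 276 and 263, again without overlap (0.23 ± 0.04, adjusted p = 0.000204). Plk2 and Mdm2 kept their calls in each of the 15 alternatives run. Eda2r was at 105, 101 and 111 against 97.4, 95.7 and 93.2 (0.14 ± 0.04, adjusted p = 0.0259); this call of Eda2r was lost with DESeq2 size factors (adjusted p = 0.057) and without WT myoblast replicate 2 or 3 or Glud1KO myoblast replicate 1 or 3 (adjusted p = 0.0579 to 0.169). Ccng1 (0.12 ± 0.04, adjusted p = 0.0546) and Bax (0.13 ± 0.05, adjusted p = 0.0696) also did not overlap between the labels but were not called; Ccng1 was called in the DESeq2 test (adjusted p = 0.037) and in a fit of these groups alone (0.0223), and Bax in that fit (0.0225), with no filter (0.0476) and with the length and GC trend removed (0.000581). Groups did not overlap in 33.0% of all genes in myoblasts and in 46.5% in differentiated myotubes. Trp53 itself differed by 0.05 ± 0.05 (approximate 95% interval -0.04 to 0.14, adjusted p = 0.565) and Zmat3 by -0.00 ± 0.04. The proliferation markers summed to 809.6 to 831 CPM in Glud1KO and 733.7 to 779 in WT myoblasts. The 8 myogenic markers summed to 1850.2 to 1926 CPM in Glud1KO and 2116 to 2304 in WT myoblasts, with 4 of them called lower (Myog, Des, Ckm and Myh3) and a median log2 difference of -0.21 beside 0.01 over all genes. The 6 fibroblast markers summed to 4.42 to 5.56 CPM in Glud1KO and 7.61 to 8.22 in WT, and the 3 mural cell markers to 31.3 to 33.8 and 36.7 to 41.0. The part of these marker lists in the differences was not tested.

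In differentiated myotubes the genes that stood out were others. Trp53inp1 was at 32.9 and 30.1 CPM in Glud1KO libraries against 46.7, 42.1 and 41.9 in WT, 1.38-fold lower (log2 -0.46 ± 0.07, adjusted p = 9.92e-06). Trp53 was at 31.8 and 38.5 CPM against 45.9, 44.6 and 47.4, 1.31-fold lower (-0.39 ± 0.07, adjusted p = 9.02e-05). Both kept their calls in each of the 14 alternatives run, but the size for Trp53 rests on few libraries: it was -0.26 without Glud1KO differentiated replicate 1 (adjusted p = 0.0208) and -0.53 without replicate 2. Ccng1 was higher, at 943 and 884 against 847, 820.2 and 782 (0.16 ± 0.05, adjusted p = 0.00833), but not called under library size alone (adjusted p = 0.114), in a fit of these groups alone (0.0744) or without Glud1KO replicate 1 (0.161). Zmat3, at 104 and 94.1 against 108, 110.2 and 107 (-0.13 ± 0.05, adjusted p = 0.0432), kept its call in 3 of 14 alternatives, and its sign turned to 0.05 with the length and GC trend removed. Its adjusted p was 0.0543 to 0.107 without any 1 of the WT differentiated replicates and 0.54 without Glud1KO differentiated replicate 2, where the difference was -0.06; without Glud1KO differentiated replicate 1 it was -0.20 (adjusted p = 0.0143). This stage has 2 Glud1KO libraries, and markers of dividing cells were also lower in them: Mki67 was at 0.792 ± 0.288 against 4.65 ± 0.503 CPM (SD, n = 2 and 3; log2 -2.55 ± 0.33, adjusted p = 4.35e-08), and the 3 proliferation markers summed to 2.94 to 3.35 against 12.5 to 16.7 CPM. Of the 8 myogenic markers, Pax7, Myf5 and Myod1 were called lower (3 of 8), and their sums overlapped, at 22151 to 24374 against 21916 to 25589 CPM. The leukocyte markers summed to 24.3 to 28.0 against 15.5 to 18.5 CPM, and the fibroblast markers to 0.588 to 0.943 against 1.09 to 2.23. The mural cell markers summed to 1.23 to 1.89 against 0.774 to 0.871 CPM, and the endothelial markers to 6.79 to 7.08 against 5.50 to 6.05. The part of these marker lists in the lower Trp53 was not tested.

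In fused myotubes Trp53 alone was called. It was at 32.6, 31.6, 31.7 and 35.0 CPM in Glud1KO against 36.3, 38.3, 36.4 and 38.6 in WT libraries, without overlap (log2 -0.20 ± 0.06, adjusted p = 0.0174). Groups did not overlap in 15.8% of all genes at this stage. The call of Trp53 was lost with the effective-length offset (adjusted p = 0.0831) and without WT fused replicate 4 (0.0613), Glud1KO fused replicate 2 (0.0594) or Glud1KO fused replicate 3 (0.0655). The proliferation markers were then near 0 under both labels, at 0.376 to 0.932 CPM in Glud1KO and 0.571 to 1.10 in WT. The myogenic markers summed to 19605 to 20211 against 20475 to 22478 CPM, with 1 of 8, Myf5, called lower, and their part in the lower Trp53 was not tested. The other 9 genes differed by -0.08 to 0.09 on the log2 scale, and for Sesn1 (-0.08 ± 0.04, 95% interval -0.15 to -0.01, adjusted p = 0.183) and Mdm2 (0.04 ± 0.03, interval -0.03 to 0.10, adjusted p = 0.578) the groups did not overlap.

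**Figure D4:**
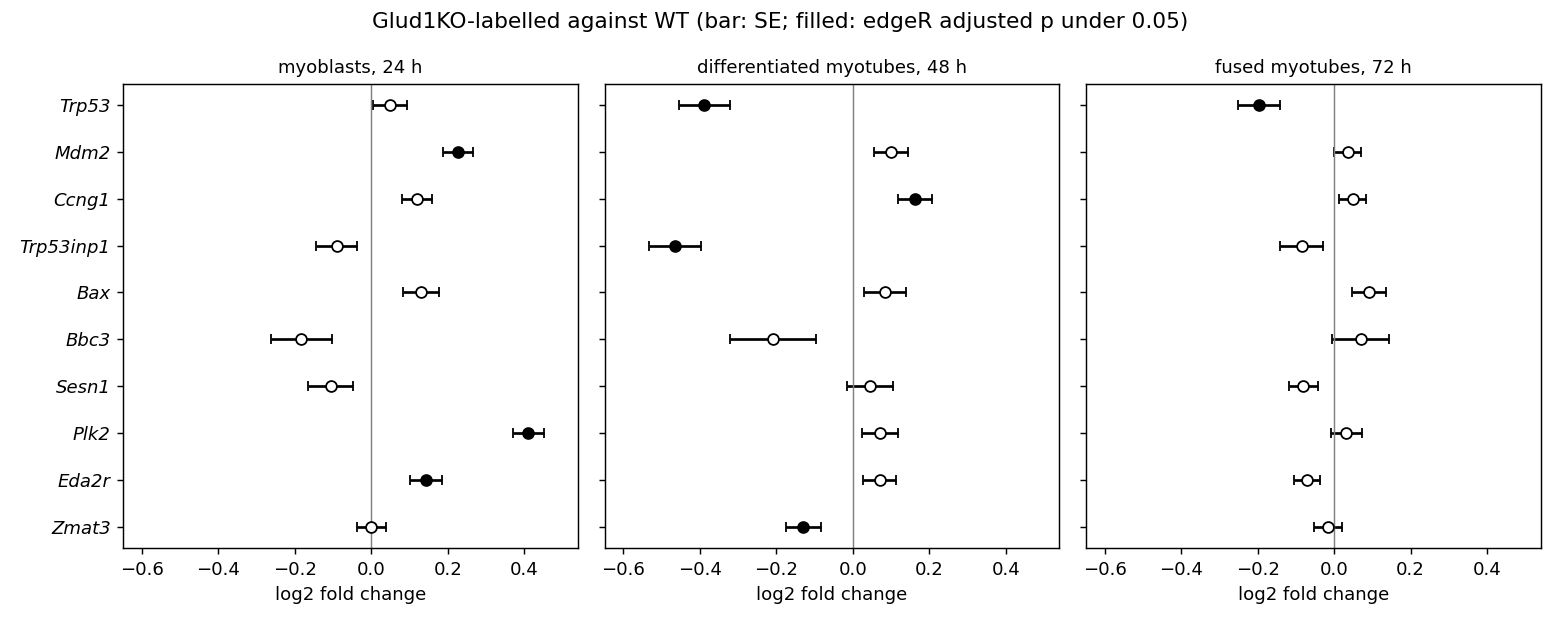
Log2 fold change (horizontal axis) of Glud1KO-labelled against WT libraries for each of the 10 genes at 24, 48 and 72 h; points are edgeR estimates, bars the SE, and filled points have an adjusted p under 0.05. Plk2 (0.41), Mdm2 and Eda2r are filled on the right at 24 h, Trp53 and Trp53inp1 (-0.46) on the left at 48 h, and Trp53 alone is filled at 72 h.

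Whether the genotype difference itself changed between stages was tested as an interaction, which called 19.1% of all genes at differentiation (48 h against 24 h), 14.8% on fusion (72 h against 48 h) and 10.3% over both steps (72 h against 24 h). The excess of Plk2 in Glud1KO libraries was smaller in differentiated myotubes than in myoblasts (interaction -0.34 ± 0.06, adjusted p = 0.000269) and smaller in fused myotubes than in myoblasts (-0.38 ± 0.06, adjusted p = 5.86e-05). For Trp53 the interaction was -0.44 ± 0.08 at the first step (adjusted p = 0.000295), where it went from no called difference to a lower level. For Trp53inp1 it was -0.37 ± 0.09 (adjusted p = 0.00283) and then 0.38 ± 0.09 (adjusted p = 0.00392), so that its deficit was larger in differentiated myotubes than at the stage before or after. These 5 interactions were called in every alternative run. Between myoblasts and fused myotubes, Eda2r (-0.21 ± 0.05, adjusted p = 0.0103), Mdm2 (-0.19 ± 0.05, adjusted p = 0.0182) and Trp53 (-0.25 ± 0.07, adjusted p = 0.0271) were also called. Of these, Trp53 lost its call in 7 of 23 alternatives, Mdm2 in 3 and Eda2r in 1, which left out Glud1KO myoblast replicate 3 (adjusted p = 0.0516); the calls of Trp53 and Mdm2 were both lost under the effective-length offset (0.144 and 0.086) and without Glud1KO myoblast replicate 1 (0.0851 and 0.0647). For Trp53 the other losses were without WT myoblast replicate 1 or 2, WT fused replicate 4 or Glud1KO fused replicate 2 or 3 (0.0589 to 0.0651), and for Mdm2 without WT myoblast replicate 3 (0.0777).

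A wider list of 36 further p53 targets also held genes that moved either way. In WT differentiated against WT myoblasts 9 of 36 were higher and 24 lower (beside 42.4% and 42.6% of all genes), with a median log2 change of -0.99 beside 0.02 over all genes, and on fusion 16 were higher and 13 lower (beside 37.4% and 37.7% of all genes; median 0.10 beside -0.01). Cdkn1a, which encodes the inhibitor that stops cyclin-dependent kinases, rose from 518 ± 14.4 to 3076 ± 98.6 and 3835 ± 155 CPM (SD, n = 3, 3 and 4; log2 2.57 ± 0.04 and 0.32 ± 0.04, adjusted p = 1.4e-26 and 1.01e-07). Ak1, an adenylate kinase of muscle, rose by 1.28 ± 0.04 and Gadd45a, a growth arrest gene, by 1.08 ± 0.05 at the first step. Trp53i11 fell by 4.01 ± 0.07, Pidd1, a death-domain scaffold, by 3.02 ± 0.11, and the autophagy gene Dram1 by 2.95 ± 0.26. On fusion Ddit4l, which like Sesn1 restrains mTORC1, had the largest rise of the list (4.49 ± 0.16), followed by Steap3 (1.71 ± 0.08) and Fdxr (1.23 ± 0.14), and Psrc1 (-2.06 ± 0.12), Tnfrsf10b (-1.33 ± 0.06) and Pidd1 (-1.10 ± 0.17) had the largest falls.

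Between the genotype labels, 5 of these 36 targets were higher and 5 lower in Glud1KO myoblasts, 4 higher and 11 lower in differentiated and 4 higher and 5 lower in fused myotubes. Of all genes 4.86%, 11.0% and 6.32% were higher and 6.69%, 14.1% and 6.72% lower at these stages. The medians were 0.06, -0.13 and 0.02, beside 0.01, -0.01 and -0.01 over all genes. Pmaip1, which encodes the BH3-only protein NOXA, was lower at all 3 stages (-0.31 ± 0.05, -0.35 ± 0.05 and -0.36 ± 0.04; adjusted p = 2.89e-05, 9.36e-06 and 1.63e-06), as were Cd80 and Sesn2. Pmaip1 levels were 64.3 ± 2.49, 97.9 ± 3.05 and 55.6 ± 2.45 CPM in WT and 52.0 ± 0.850, 77.0 ± 5.92 and 43.3 ± 1.37 in Glud1KO libraries. Cd80, a ligand of T cells, differed by -0.33 ± 0.08, -1.07 ± 0.21 and -0.84 ± 0.17, and Gdf15, a stress-induced cytokine, by -0.24 ± 0.09 (adjusted p = 0.0972, not called), -1.34 ± 0.19 (adjusted p = 1.92e-06) and -0.48 ± 0.13 (adjusted p = 0.0162). Gdf15 was low, at 3.29 ± 0.119 CPM in WT and 1.30 ± 0.0191 in Glud1KO differentiated myotubes. Trp53i11 was higher in Glud1KO myoblasts (0.18 ± 0.04) and lower in Glud1KO differentiated myotubes (-1.36 ± 0.14). Zfp365 was higher in differentiated (0.48 ± 0.04) and fused (0.20 ± 0.03) Glud1KO myotubes, as were Rps27l (0.26 ± 0.06) and Ak1 (0.20 ± 0.05) in differentiated and Ddit4l (0.39 ± 0.08) and Steap3 (0.25 ± 0.06) in fused myotubes. Pidd1 (0.33 ± 0.07) and Psrc1 (0.18 ± 0.05) were higher and Sesn2 lower (-0.21 ± 0.06) in Glud1KO myoblasts. Cdkn1a was lower in Glud1KO myoblasts, at 466 ± 6.66 against 518 ± 14.4 CPM (-0.15 ± 0.04, adjusted p = 0.0241), and differed by 0.10 ± 0.05 and 0.01 ± 0.04 at the later stages, without a call.

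**Figure D5:**
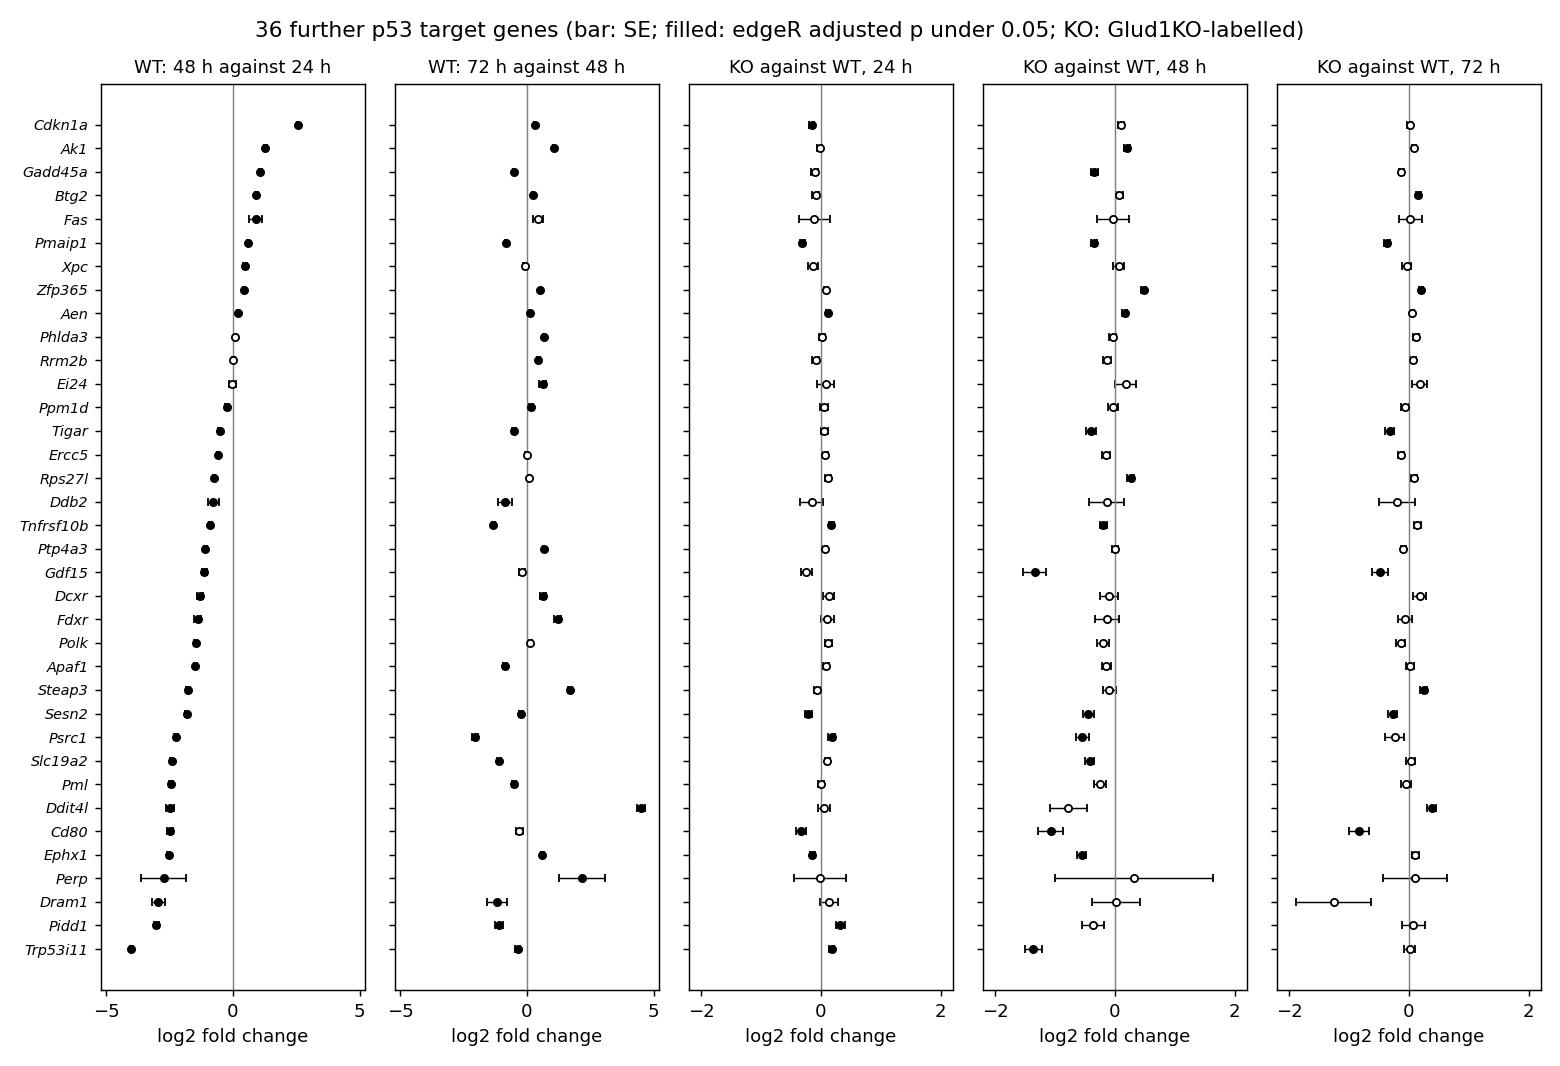
Log2 fold change (horizontal axes; the scale is wider in the 2 panels on the left) of 36 further p53 target genes, ordered by their change from 24 to 48 h in WT; points are edgeR estimates, bars the SE, filled points have an adjusted p under 0.05, and KO stands for Glud1KO-labelled. Cdkn1a (2.57) is at the top and Trp53i11 (-4.01) at the bottom of the first panel, and Pmaip1, Cd80 and Sesn2 are filled left of 0 in all 3 genotype panels.

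Genes that regulate p53 and its relatives were a further list of 27, of which 26 were tested (Trp73 was not). In WT, 10 were higher and 15 lower at differentiation, and 7 higher and 14 lower on fusion, with medians of -0.33 and -0.10 beside 0.02 and -0.01 over all genes. Of all genes 42.4% were higher and 42.6% lower at the first step, and 37.4% and 37.7% at the second. Trp63, which encodes the p53 relative p63, had the largest rise, from 0.389 ± 0.0444 to 8.23 ± 1.06 and 89.9 ± 1.61 CPM (log2 4.38 ± 0.22 and 3.44 ± 0.06), while Trp53 fell. Ppp1r13l, whose product iASPP inhibits p53, rose by 1.95 ± 0.06 and the p53 kinase gene Hipk2 by 1.07 ± 0.07. The checkpoint kinase genes Chek1 and Chek2 fell by 3.75 ± 0.15 and 2.95 ± 0.14, and Npm1, a nucleolar protein, by 2.21 ± 0.04. Mdm4, the partner of Mdm2, was at 53.1 ± 1.99, 52.3 ± 3.52 and 20.3 ± 0.605 CPM, with a fall of 1.36 ± 0.06 on fusion and none called before (-0.02 ± 0.06, adjusted p = 0.745). On fusion Ppp1r13b (1.15 ± 0.06) and Cop1 (0.39 ± 0.04) rose, and Chek2 (-1.43 ± 0.22) and Chek1 (-0.86 ± 0.22) fell again. Cdkn2a, whose ARF product blocks MDM2, fell by 0.96 ± 0.07 and then by 0.45 ± 0.08.

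Across the genotype labels 1 regulator was higher and 1 lower in myoblasts, Npm1 (0.15 ± 0.04) and Hipk2 (-0.23 ± 0.07). In differentiated myotubes 2 were higher, Cop1 (0.20 ± 0.05) and Usp10 (0.15 ± 0.04), and 8 lower, with the damage-sensing kinase genes Prkdc (-0.53 ± 0.10) and Atr (-0.36 ± 0.10) and with Npm1 (-0.28 ± 0.05) having the largest differences. In fused myotubes 4 were lower, led by Atm (-0.24 ± 0.07), Trim24 (-0.22 ± 0.05) and Trp63 (-0.20 ± 0.04), and no regulator was higher. The medians were 0.03, -0.15 and -0.08, beside 0.01, -0.01 and -0.01 over all genes, of which 11.6%, 25.2% and 13.0% were called. Mdm4 (0.13 ± 0.05, -0.15 ± 0.07 and -0.13 ± 0.07) and Cdkn2a (-0.03 ± 0.07, -0.21 ± 0.09 and 0.12 ± 0.08) were not called at any stage, with adjusted p = 0.091 to 0.846.

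Of 21 genes of the BCL2 family and caspases, which carry out or restrain the death that Bax and Bbc3 start, 20 were tested (Hrk was not). In WT 8 were higher and 11 lower at differentiation and 10 higher and 5 lower on fusion, with medians of -0.61 and 0.11 beside 0.02 and -0.01 over all genes. The 19 and 15 called of 20 stand beside 85.0% and 75.1% of all genes called, so these counts do not set the list apart. The survival gene Bcl2l2 (1.92 ± 0.07), the BH3-only gene Bmf (2.05 ± 0.24) and Birc2 (0.90 ± 0.07) rose at differentiation, and the caspase gene Casp8 (-3.90 ± 0.13), Bok (-3.29 ± 0.10) and the survival gene Bcl2 (-3.18 ± 0.20) fell. On fusion Birc3 (2.45 ± 0.37), Bcl2 (2.10 ± 0.21) and Bik (1.79 ± 0.30) rose, and Bid (-0.35 ± 0.04) was among those that fell. Bid, which links death receptors to BAX, was lower in Glud1KO libraries at all 3 stages (-0.18 ± 0.04, -0.60 ± 0.05 and -0.45 ± 0.04; adjusted p = 0.00307, 2.16e-09 and 3.26e-08). Bcl2l1, which encodes BCL-XL, was the other gene called in Glud1KO myoblasts (-0.17 ± 0.03) and was lower in fused myotubes too (-0.17 ± 0.03). In differentiated myotubes 3 were higher in Glud1KO libraries, Mcl1 (0.24 ± 0.05), Bcl2l2 (0.20 ± 0.06) and Diablo (0.18 ± 0.05), and 4 lower, among them Casp8 (-0.68 ± 0.24) and Bcl2l11 (-0.47 ± 0.13). In fused myotubes 4 were higher, among them Bcl2 (0.46 ± 0.13) and Bak1 (0.17 ± 0.04), and 3 lower, Bid, Casp9 (-0.28 ± 0.08) and Bcl2l1. The called counts of 2, 7 and 7 of 20 at the 3 stages stand beside 11.6%, 25.2% and 13.0% of all genes. Bax and Bbc3 themselves were not called between the labels at any stage, apart from Bax in myoblasts in the alternatives given above.

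The genes most alike to each member in log2 CPM over the 19 libraries are given with Pearson's r as a description; the libraries share 3 stages, which set most of each pattern. Trp53 was most like Tpx2 (0.999), Ptma (0.998) and Src (0.998), and Zmat3 like Bub1b (0.997), Nek2 (0.996) and Mybl1 (0.996), of which Tpx2, Bub1b and Nek2 encode proteins of the mitotic spindle and its checkpoint. Eda2r was most like Bex1 (0.999), Fxr1 (0.998) and Gpr155 (0.998), Sesn1 like Atp1b2 (0.998), As3mt (0.997) and Fbxo31 (0.997), and Ccng1 like Cop1 (0.994), Asnsd1 (0.993) and Ndufb5 (0.992). Plk2 was most like Ptgs2 (0.991), Hnrnpdl (0.985) and AL805899.1 (0.984), Bax like Ppa1 (0.989), Nme1 (0.984) and Pop4 (0.984), and Mdm2 like Ppp2r2d (0.972), Hprt (0.964) and Exoc5 (0.963). Trp53inp1 was most like Tanc2 (0.966), Ddah2 (0.958) and Ndrg1 (0.952), and Bbc3 like Btg1 (0.960), Map2k6 (0.959) and Rnf150 (0.958). Among the members, Trp53 and Zmat3 had r = 0.988 and Trp53 and Eda2r had r = -0.990.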

How the data were processed

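Illumina TruSeq mRNA libraries were made from RNA of an RNeasy micro kit, per the labels' protocols. The submitters' processing notes name bcl2fastq 2.20, fastp 0.20.0, kallisto 0.46.1 and edgeR 3.36 with build GRCm38.p6. The authors deposited, per library, an estimated count and a TPM value for each of 121843 transcripts, with lengths and effective lengths, per the file headers. kallisto divides a read between the transcripts it matches, so near-identical transcripts such as Trp53-201 and Trp53-203 can exchange counts.

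Transcripts were joined to genes by GENCODE M21; 121018 matched, and the 825 others held 0.255% to 0.507% of counts and were left out. Estimated counts were summed per gene and rounded, and TPM values were summed without a test. Replicates differed by more than sampling noise (chi-square per degree of freedom 2.14 to 7.66), so none was a copy. Counts were fitted with edgeR 4.0.16 in R 4.3.3 (filterByExpr, TMM, quasi-likelihood test) over all 19 libraries and 6 groups, for 12 comparisons, with Benjamini-Hochberg adjustment over 15123 genes. Alternatives used DESeq2 1.42.0, other scalings and filters, a replicate block and leaving out each library. The fit was tested on simulated counts. Promoter windows come from RefSeq on GRCm38.p6. Whether counting used strand is not given in the sources used here; Bax and Sesn1 each overlap a further annotated gene on the same strand.

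The members and lists were chosen with earlier results of these data known. Beside the 10 members, the text names Cdkn1a, Gdf15, Mdm4 and Cdkn2a, the 3 called genes of each list with the largest rise and fall and at least 1 CPM in the higher group, for 5 comparisons, and the 3 genes most alike to each member. Sesn2 is named beyond this where it was lower at all 3 stages. Values of some genes that this rule would name are not reported here.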

Additional observations from a re-analysis of the deposited data

Results flagged for a closer look

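In fused Glud1KO myotubes 1 of 4 libraries stood apart in Bax, at 124 CPM where the other 3 were at 119; its gap to the nearest, divided by the range of the group, was 0.915, above Dixon's critical value for a group of 4. Among 20 groups of members tested, chance flags about 1 in 20.

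The genotype difference changed between stages, by the interaction term of the edgeR fit, in 5 members; the term called 19.1%, 14.8% and 10.3% of all genes in the 3 comparisons that follow. Between myoblasts and differentiated myotubes it changed by -0.44 in Trp53, -0.37 in Trp53inp1 and -0.34 in Plk2 (log2). Between differentiated and fused myotubes it changed by 0.38 in Trp53inp1. Between myoblasts and fused myotubes it changed by -0.25 in Trp53, -0.19 in Mdm2, -0.38 in Plk2 and -0.21 in Eda2r; there the call was lost in 7 of 23 alternatives for Trp53, 3 for Mdm2 and 1 for Eda2r.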

How the results depend on the processing

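Over 120 log2 changes of the 10 members under 28 alternatives, 1940 of 2030 values stayed on their side of the threshold; 46 of these, called neither before nor after, changed sign. A further 53 lost the call, 30 gained one and 7 changed sign with a call before or after. With library size alone, Bbc3 between WT myoblasts and fused myotubes turned to -0.23. With the length and GC trend removed, Zmat3 turned to 0.0451 (Glud1KO against WT, differentiated) and 0.22 (WT, fused against differentiated), Mdm2 to 0.0125 and Plk2 to 0.0813 (WT, differentiated against myoblasts), and Bbc3 to -0.51 in WT and -0.38 in Glud1KO fused myotubes against myoblasts. The cause was not tested.

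The number of members called between the labels moved from 3 to 5 in myoblasts and from 4 to 2 in differentiated myotubes when only the groups compared were fitted, on fewer samples, and to 6 in differentiated myotubes with the length and GC trend removed. In fused myotubes it moved from 1 to 0 with the effective-length offset, and ranged from 0 to 1 with 1 library left out. The number of called interactions, 3, 1 and 4, moved to 5 at differentiation and 2 on fusion with library size alone, to 5 and 4 with the trend removed, to 2 on fusion in the DESeq2 test, and to 2 between myoblasts and fused myotubes with the offset. With 1 library left out, the second ranged from 1 to 2 (2 without Glud1KO differentiated replicate 2) and the third from 2 to 4 (2 without Glud1KO myoblast replicate 1).

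Libraries with the same replicate number did not deviate together more than others. Their r was -0.10 to 0.11 over the 9 pairs of WT and Glud1KO libraries of 1 stage (1 over 0.1). It was -0.12 to 0.14 over all 41 pairs, across stages too (2 over 0.1). Pairs with different numbers had r of -0.17 to 0.17, both over 22 pairs of 1 stage (4 over 0.1) and over all 108 (11 over 0.1). With so few libraries per group, these values cannot exclude a pairing. With the replicate block, 3, 3 and 1 members were called between the labels, against 3, 4 and 1; Zmat3 in differentiated myotubes was the call lost (log2 -0.13, adjusted p = 0.0598). Depth limits the precision of genes at low counts, such as Bbc3, which was under 15 CPM in every library.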
